A study of Mus musculus with 6 samples.

Results

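The S100 genes encode small calcium-binding proteins, and 10 of them were followed here among the 21526 gene symbols counted in the table: S100a1, S100a4, S100a6, S100a8, S100a9, S100a10, S100a11, S100a14, S100a16 and S100b. They were chosen by symbol, and all 10 were found. RNA came from gastric corpus epithelial cells of mice, released with EDTA and not cultured, with 3 libraries of wild-type normal stomach (Normal) and 3 labelled Yap-activated gastric cancer. The Yap-activated mice carried CluCreERT2, R26rtTA and HA-Yap: a tamoxifen-dependent Cre named for the Clu gene, a doxycycline-dependent activator at Rosa26 and a Yap transgene with an HA tag. Per the labels' protocols, tamoxifen was injected intraperitoneally at 2 mg for 5 days in a row and doxycycline food followed for the 14 days before the endpoint, with no difference stated between the groups. The normal mice lacked all of these alleles, so what the Cre and activator alleles do by themselves and what Yap does cannot be told apart. The sources used here do not give the age or sex of the mice.

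S100 proteins carry a pair of EF-hand loops that bind calcium, and most act as dimers that open a binding groove for a partner when calcium rises. Inside cells they bind annexins, the cytoskeleton and channels, and several are also released and act on receptors such as RAGE (gene Ager) and Tlr4. S100A8 and S100A9 form calprotectin, an abundant cytosolic complex of neutrophils and monocytes that chelates zinc and manganese. It is also made by inflamed squamous epithelium. S100A6, S100A10, S100A11, S100A14 and S100A16 are found in many epithelia, S100B is best known from glia, S100A1 from muscle, and S100A4 from fibroblasts and leukocytes. On this basis 5 members are called epithelial below (S100a6, S100a10, S100a11, S100a14, S100a16), 2 myeloid (S100a8, S100a9) and 3 other (S100a1, S100a4, S100b). The names stand for where the genes are known from, and RNA was measured over all cells together.

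On GRCm38, 9 of the 10 genes lie on chromosome 3 and S100b lies on chromosome 10. The 12 S100 genes of the table from S100a1 to S100a9 form one block, and S100a11 and S100a10 stand beyond a stretch of skin barrier genes. Sequences around the annotated start, 250 bases before to 50 after it, were read from RefSeq's GRCm38.p6 promoters, which held 8 of the 10 members in 9 windows. S100a10 and S100a14 had no window there and were not searched, and the extra window was of S100a16. The windows were searched on both strands for CATTCC, the core bound by TEAD factors, which are the DNA-binding partners of Yap. Also searched on both strands were the AP-1 letters TGANTCA. The third motif, of C/EBP factors, was TTNCNNAA on both strands. The TATA box letters TATAAA were searched on the gene's strand alone. None of the 9 windows held CATTCC, which was in 14.7% of all 32851 windows. TGANTCA was in 2 of the 9 against 7.81% of all, TTNCNNAA in 2 against 40.7%, and TATAAA in 3 against 8.32%. These matches are letters in a window and do not show that a factor binds. Capitals below mark the matches. The genes are shown for different reasons: S100a6 is the most abundant member, S100a11 holds a pair of AP-1 letters, S100a8 and S100a9 differ most between libraries, and S100a7a is the S100 gene with the largest fold change outside the 10.
S100a6: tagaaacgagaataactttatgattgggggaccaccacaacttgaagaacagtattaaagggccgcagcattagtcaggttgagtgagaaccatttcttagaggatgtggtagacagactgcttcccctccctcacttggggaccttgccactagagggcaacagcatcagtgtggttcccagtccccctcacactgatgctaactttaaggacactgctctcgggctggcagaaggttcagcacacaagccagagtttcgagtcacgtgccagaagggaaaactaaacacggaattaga
S100a11: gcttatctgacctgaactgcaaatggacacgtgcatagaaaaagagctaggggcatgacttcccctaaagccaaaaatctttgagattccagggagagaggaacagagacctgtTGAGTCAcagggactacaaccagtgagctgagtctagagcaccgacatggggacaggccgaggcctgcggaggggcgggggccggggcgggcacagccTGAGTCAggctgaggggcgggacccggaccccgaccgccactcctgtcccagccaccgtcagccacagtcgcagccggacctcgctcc
S100a8: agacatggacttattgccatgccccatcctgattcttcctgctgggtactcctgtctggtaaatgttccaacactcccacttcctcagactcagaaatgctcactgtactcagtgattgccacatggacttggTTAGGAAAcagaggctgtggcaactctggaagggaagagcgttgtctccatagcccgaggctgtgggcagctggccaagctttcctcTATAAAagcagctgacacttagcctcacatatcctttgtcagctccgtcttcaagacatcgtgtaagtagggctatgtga
S100a9: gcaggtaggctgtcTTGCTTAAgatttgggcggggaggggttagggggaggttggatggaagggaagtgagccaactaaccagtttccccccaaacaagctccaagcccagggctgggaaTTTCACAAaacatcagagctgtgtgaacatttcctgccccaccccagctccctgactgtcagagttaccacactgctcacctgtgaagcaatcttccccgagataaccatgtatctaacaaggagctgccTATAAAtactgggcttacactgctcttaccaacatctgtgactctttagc
S100a7a: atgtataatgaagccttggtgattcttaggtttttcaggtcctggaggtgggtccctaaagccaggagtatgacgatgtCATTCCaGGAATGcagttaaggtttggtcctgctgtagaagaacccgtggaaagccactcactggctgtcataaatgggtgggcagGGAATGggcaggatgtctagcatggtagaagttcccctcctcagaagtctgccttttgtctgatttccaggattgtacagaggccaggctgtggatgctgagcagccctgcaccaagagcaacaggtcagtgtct

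The windows are chr3:90612644-90612943 for S100a6, chr3:93520246-93520545 for S100a11, chr3:90668821-90669120 for S100a8 and chr3:90654052-90654351 for S100a7a, all on the plus strand, and chr3:90695672-90695971 on the minus strand for S100a9. In S100a11 the letters TGAGTCA begin 136 and 38 bases before the start. In S100a8 the letters TATAAA begin 30 bases before the start and the C/EBP letters 117 bases before it. In S100a9 the C/EBP letters begin 236 and 130 bases before the start, and TATAAA at position 1 from it. The S100a6 window held none of these letters. The S100a7a window held CATTCC or its reverse complement 3 times, beginning 171, 164 and 85 bases before the start. No TGANTCA, TTNCNNAA or TATAAA letters stood in the S100a7a window.

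The Normal libraries held 36815754 to 48440033 counts each. The Yap-activated ones held 25580734 to 44295619, with the lowest total in replicate 1. Levels are TMM-scaled CPM, a count relative to library size, where 1 CPM stands for 29.5 to 53.8 reads in a library. Yap1 itself had 100.3 to 106 CPM in Normal and 3085, 1468 and 1651 CPM in Yap-activated replicates 1, 2 and 3. Of 14600 genes tested, 59.5% were called in either direction with 29.8% higher and 29.7% lower in Yap-activated tissue, so a rise is a common result here. The median log2 fold change over these genes was 0.0114. With library totals in place of TMM that median was 0.50. No 2 replicates of a group agreed within sampling noise.

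All 9 members tested were higher in Yap-activated tissue, and in each of the 9 every Yap-activated library stood above every Normal one (background: 33.2% of all genes tested in this direction and 67.6% in either). By over 2-fold 8 of the 9 rose, against 16.9% of all genes, and by over 8-fold 4 rose (S100a8, S100a9, S100a10 and S100a14), against 4.07%. The median log2 fold change was 2.74 over the 9. The tenth, S100a4, was too low to test. Summed over the 10 members the level was 651 ± 108 CPM in Normal and 4685 ± 1342 CPM in Yap-activated libraries (SD, n = 3), a ratio of 7.19. The members held 0.0458% to 0.0648% of all counts in Normal libraries and 0.436% to 0.713% in Yap-activated ones. In bulk RNA more cells of a type and more RNA per cell cannot be told apart.

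**Figure D1:**
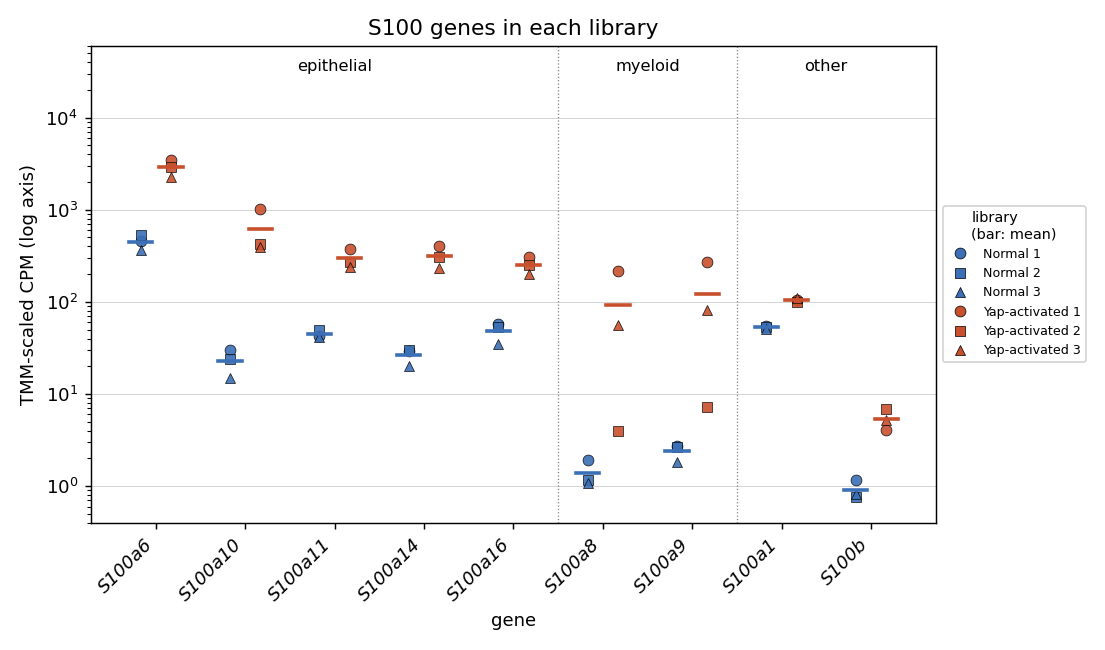
TMM-scaled CPM on a log axis for the 9 tested members in each of the 3 Normal and 3 Yap-activated libraries, with a bar at each group mean and the members grouped as epithelial, myeloid and other. Within a group the libraries of each epithelial member differ by up to 2.64 times. S100a8 and S100a9 of Yap-activated replicate 2 (4.01 and 7.20 CPM) lie just above the Normal libraries.

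S100a6, which encodes calcyclin, was the most abundant member. It had 453, 531 and 367 CPM in Normal replicates 1, 2 and 3, and 3469, 2904 and 2276 CPM in Yap-activated replicates 1, 2 and 3. The groups were far apart, with every Yap-activated library above every Normal one. By edgeR's quasi-likelihood test its log2 fold change was 2.68 (SE 0.23), with a Benjamini-Hochberg adjusted p = 4.30e-05 over all genes tested. By mean CPM, S100a6 was the gene ranked 169 of all in Normal and 12 in Yap-activated tissue. The gene lies on the plus strand of chromosome 3 from 90612882 to 90624181.

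S100a10 encodes the light chain of the annexin A2 tetramer, and its protein is known for having lost calcium binding. It had 30.4, 24.1 and 14.8 CPM in the Normal libraries and 1030, 426 and 390 CPM in the Yap-activated ones. Replicate 1 stood highest in both groups, and the groups did not overlap. Among epithelial members it had the largest change, a log2 fold change of 4.73 (SE 0.50, adjusted p = 2.43e-04, edgeR), and 1.51% of all genes tested had a larger one. Without Yap-activated replicate 1 the value was 4.15. S100a10 moved from rank 6805 by mean CPM to rank 103. It lies on chromosome 3 from 93555080 to 93564643.

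S100a11, whose protein binds annexin A1, had 42.2, 49.6 and 41.5 CPM in Normal and 378, 271 and 241 CPM in Yap-activated libraries. The log2 fold change of S100a11 was 2.74 (SE 0.19, adjusted p = 1.64e-05, edgeR). S100a11 is the neighbour of S100a10 in the annotation, on the same strand from 93520488 to 93526287, and changed about as much as S100a6, which lies in the other block. S100a14 and S100a16 lie side by side in the first block, from 90526856 to 90528837 and from 90537254 to 90543151. S100a14 had 29.4, 30.1 and 20.4 CPM in Normal and 399, 307 and 235 CPM in Yap-activated libraries, a log2 fold change of 3.56 (SE 0.25, adjusted p = 1.87e-05, edgeR). S100a16 had 57.8, 53.4 and 34.8 CPM and then 304, 251 and 199.9 CPM, a log2 fold change of 2.37 (SE 0.23, adjusted p = 9.80e-05, edgeR). S100a16 was higher than S100a14 in each Normal library and lower in each Yap-activated one on the CPM scale.

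The 5 epithelial members followed the same order of Yap-activated libraries, replicate 1 highest and replicate 3 lowest, and each was lowest in Normal replicate 3. They share these libraries, so this order is 1 observation and not 5. Their median log2 fold change was 2.74, with values from 2.37 to 4.73. Summed over the 5, the level was 479 to 688 CPM in Normal and 3342 to 5581 CPM in Yap-activated libraries. Beside them, the summed level of 6 general epithelial markers (Epcam, Cdh1, Krt8, Krt18, Krt19, Cldn7) was 4915 to 6268 CPM in Normal and 10922 to 13009 CPM in Yap-activated libraries. The 4 parietal cell markers found in the table (Atp4a, Atp4b, Kcne2, Slc26a7) summed to 21268 to 28949 CPM in Normal and 24.6 to 33.6 CPM in Yap-activated libraries. The part of these shifts in the rise of the epithelial members was not tested.

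By edgeR the calprotectin genes had the largest fold changes of the 9 tested members, and they had the widest spread between Yap-activated libraries. S100a8 had 1.92, 1.16 and 1.07 CPM in Normal replicates 1, 2 and 3, and 219, 4.01 and 55.8 CPM in Yap-activated replicates 1, 2 and 3. S100a9 had 2.74, 2.66 and 1.83 CPM in Normal and 274, 7.20 and 81.6 CPM in the Yap-activated libraries. In both genes Yap-activated replicate 1 was far above the others and replicate 2 was close to Normal, yet the groups did not overlap. The log2 fold change of S100a8 was 6.06 (SE 1.42, adjusted p = 0.00948, edgeR) and that of S100a9 was 5.64 (SE 1.26, adjusted p = 0.00799, edgeR). Without Yap-activated replicate 1 they were 4.43 and 4.20, both still past the threshold (adjusted p = 0.00982 and 0.00824, edgeR). With limma voom neither passed (adjusted p = 0.161 and 0.112), and S100a10, at 4.67, stood above S100a8 at 4.66 and S100a9 at 4.46. Over all 14 alternatives the adjusted p ran from 6.43e-06 to 0.161 for S100a8 and from 5.77e-06 to 0.112 for S100a9.

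S100a8 lies on the plus strand of chromosome 3 from 90668978 to 90670035 and S100a9 on the minus strand from 90692632 to 90695721. The share of S100a8 in the reads of both genes was 41.3%, 30.4% and 37.0% in the Normal libraries, from 160, 161 and 92 reads. In the Yap-activated libraries it was 44.4%, 35.7% and 40.6%, from 14537, 470 and 7388 reads. The exact 95% binomial interval in Yap-activated replicate 1 was 43.5% to 45.2% and in Yap-activated replicate 2 it was 31.4% to 40.3%, for counting error only. Group values were 36.2 ± 5.45% and 40.2 ± 4.32% (SD, n = 3) and overlapped. The balance of the subunit RNAs differed by less than the spread between libraries.

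Set against the mean of the Normal libraries, the order of the epithelial and myeloid members depended on the library. In Yap-activated replicate 1 S100a8 and S100a9 were 158 and 114 times the Normal mean, and the epithelial members 6.24 to 44.6 times. In Yap-activated replicate 3 the values were 40.2 and 33.9 times against 4.11 to 16.9 times. In Yap-activated replicate 2 the order was turned: S100a8 and S100a9 stood at 2.89 and 2.99 times, below all 5 epithelial members at 5.16 to 18.4 times. The highest Yap-activated library held 54.5 times the lowest for S100a8 and 38.1 times for S100a9, but 1.52 to 2.64 times for the epithelial members. In Normal libraries that ratio was 1.79 and 1.49 for the myeloid genes and 1.19 to 2.06 for the epithelial ones. The myeloid members thus led in replicates 1 and 3 alone, and the difference between the 2 sets was not tested.

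**Figure D2:**
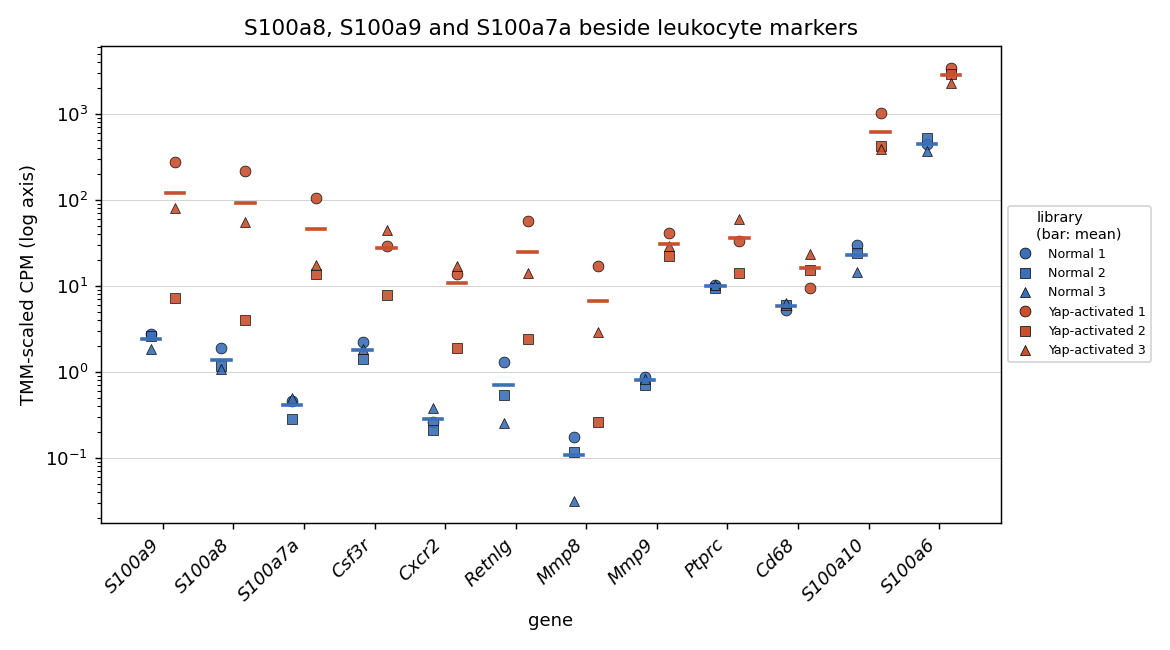
TMM-scaled CPM on a log axis in each library for S100a9, S100a8 and S100a7a beside leukocyte markers and S100a10 and S100a6, with a bar at each group mean. Among Yap-activated libraries replicate 2 is lowest for S100a9, S100a8, S100a7a, Csf3r, Cxcr2, Retnlg, Mmp8, Mmp9 and Ptprc. Cd68 is lowest in replicate 1, and S100a6 and S100a10 are lowest in replicate 3.

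Some leukocyte markers were also higher in Yap-activated tissue, and others did not pass. The 12 neutrophil markers summed to 4.55 to 25.2 CPM in Normal and to 539, 48.6 and 261 CPM in Yap-activated replicates 1, 2 and 3. Of the 12, 7 were abundant enough to test, and 6 of these were called higher, against 29.8% of all genes. Those 6 were Cxcr2, Csf3r, Retnlg, Mmp8, Mmp9 and Trem1. Some of them, such as Mmp8 and Cxcr2 (means of 0.108 and 0.285 CPM in Normal), passed the filter on counts through their Yap-activated libraries. A fall could hardly have been called for such genes, so the 7 are not an even match for the share of all genes. Ltf was much of the sum in Normal replicate 2 and in Yap-activated replicates 1 and 3. It encodes lactoferrin and is also made by glandular epithelium. In Yap-activated replicate 2 the largest part was Mmp9, at 22.3 CPM. Ltf had 0.408, 21.1 and 0.790 CPM in Normal and 353, 11.2 and 138 CPM in Yap-activated libraries, so its groups overlapped, and it did not pass (adjusted p = 0.0570, edgeR). The call of Retnlg held in 13 of 14 alternatives and that of Mmp8 in 10 of 13. Csf3r, the receptor of granulocyte colony-stimulating factor, had 1.40 to 2.21 CPM in Normal and 29.4, 7.92 and 44.8 CPM in the Yap-activated libraries. Retnlg, a resistin-like gene of neutrophils, had 0.253 to 1.31 CPM in Normal and 57.4, 2.43 and 14.2 CPM in the Yap-activated libraries. Replicate 2 was the lowest for both, while the highest was replicate 3 for Csf3r and replicate 1 for Retnlg. Ly6g, a surface marker of mouse neutrophils, had 0 reads in all 3 Normal libraries and 2.54, 0.0716 and 0.205 CPM in the Yap-activated ones. Elane, a granule protease made in the marrow, had 0 reads in all libraries but Yap-activated replicate 3 (0.0186 CPM).

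The 4 general leukocyte markers (Ptprc, Laptm5, Coro1a, Tyrobp) summed to 31.3 to 32.5 CPM in Normal and to 112, 50.9 and 223 CPM in Yap-activated replicates 1, 2 and 3. All 4 were called higher, against 29.8% of all genes, Laptm5 in 9 of 14 alternatives. The 10 macrophage and monocyte markers summed to 164 to 166 CPM in Normal and to 738, 372 and 871 CPM. Of these 10, 6 were called higher, against 29.8% of all genes, and 4 (Adgre1, Itgam, C1qa and C1qb) did not pass. Cd14, the co-receptor of Tlr4, made up 401, 209 and 226 CPM of the Yap-activated sums, against 9.74 to 16.8 CPM in Normal. Cd68, a lysosomal protein gene of macrophages, had 5.27 to 6.29 CPM in Normal and 9.46, 15.3 and 23.5 CPM in Yap-activated libraries, with the highest value in replicate 3. Both sums were highest in replicate 3, in contrast to S100a8 and S100a9, which were highest in replicate 1. The sum of S100a8 and S100a9 was 493, 11.2 and 137 CPM in these libraries. How much of the calprotectin RNA came from leukocytes was not tested.

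Closest to S100a9 over the 6 libraries, by the root mean square difference of centred log2 CPM, were Lcn2 (0.358), Mmp8 (0.398), Retnlg (0.563), Trpm8 (0.648) and Osm (0.677). Lcn2, which encodes an iron-siderophore-binding lipocalin, had 0.285 to 0.524 CPM in Normal and 46.2, 0.859 and 23.5 CPM in Yap-activated replicates 1, 2 and 3. Mmp8, the neutrophil collagenase gene, had 17.0, 0.262 and 2.90 CPM in those libraries. Trpm8 had 0 reads in the Normal libraries. Closest to S100a6 were Gch1 (0.0455), Cavin1 (0.118), Anxa3 (0.119), Tgm2 (0.123) and Aunip (0.137). Gch1, the GTP cyclohydrolase gene, had 22.0, 25.4 and 18.5 CPM in Normal and 158, 142 and 107 CPM in Yap-activated libraries. These lists describe likeness over 6 libraries that differ mainly by group.

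S100a1 had the narrowest spread between Yap-activated libraries of the 9. It had 55.3, 53.2 and 50.7 CPM in Normal and 106, 99.4 and 110 CPM in Yap-activated libraries, within 1.09 and 1.11 times from lowest to highest. For S100a1 edgeR gave a log2 fold change of 0.99 (SE 0.09, adjusted p = 6.48e-05, edgeR), the smallest of the 9, and 18.4% of all genes had a larger one. S100a1 lies on the minus strand from 90511034 to 90514392, back to back with S100a13 on the plus strand. Between the annotated RefSeq starts of these genes lie 104 bases. S100a13 had 7.68 to 9.22 CPM in Normal and 54.2, 24.8 and 26.8 CPM in Yap-activated libraries. This was a log2 fold change of 2.02 (SE 0.31, adjusted p = 0.00123, edgeR). The difference between these neighbours was not tested. Muscle markers (Myh11, Acta2, Des, Cnn1, Myl9, Ckm) did not all have the same sign of change. The 6 summed to 199 to 299 CPM in Normal and 104 to 226 CPM in Yap-activated libraries, with overlapping ranges. Of the 5 tested, 3 were called lower and 0 higher, against 29.7% and 29.8% of all genes. Those 3 were Acta2 at -0.91, Myl9 at -0.84 and Myh11 at -1.17 on the log2 scale, calls that held in 12, 10 and 7 of 14 alternatives.

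S100b had 1.16, 0.760 and 0.822 CPM in Normal and 4.10, 6.85 and 5.28 CPM in Yap-activated libraries, from 26 to 40 reads and from 121 to 287 reads. The groups did not overlap, and replicate 1 was the lowest of the Yap-activated libraries, unlike in the epithelial and myeloid members. For S100b edgeR gave a log2 fold change of 2.56 (SE 0.31, adjusted p = 2.53e-04, edgeR). Among 4 glial genes measured beside it, Sox10, Cdh19 and Ncam1 were called lower (29.7% of all genes were), at log2 fold changes of -0.91, -1.64 and -1.30. The call of Cdh19 held in 10 of 14 alternatives. Gfap, an intermediate filament gene of glia, was called higher at 1.64, from 0.537 to 0.641 CPM in Normal to 0.818 to 3.49 CPM in Yap-activated libraries. The part of glial cells in the S100b result was not tested. S100b lies on chromosome 10 from 76253853 to 76261159, within the span of Dip2a on the opposite strand but with 0 exonic bases in common. Dip2a had 1440 to 3399 reads per library, and the sources used here do not give the strand setting of the counting.

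S100a4 had 0, 0 and 3 reads in the Normal libraries and 7, 6 and 4 reads in the Yap-activated ones. No fold change is given for it. Of its 584 exonic bases, 302 are also exonic in Gm42674, a gene model on the same strand, and Gm42674 had 0 reads in all 6 libraries. The sources used here do not say how reads in shared exons were counted. Low counts at S100a4 are therefore not shown to mean low RNA. Other genes of fibroblasts, which are known to express S100a4, were present: 6 fibroblast markers (Col1a1, Col1a2, Col3a1, Dcn, Lum, Pdgfra) summed to 796 to 1198 CPM in Normal and 369 to 614 CPM in Yap-activated libraries.

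To set the members against each other, CPM was divided by exonic length in kilobases (union of GENCODE exons). In Normal tissue S100a6 led with 330 CPM per kb, followed by S100a11 (87.0), S100a1 (76.5), S100a16 (30.1), S100a10 (19.0) and S100a14 (15.4), then S100a9 (4.62), S100a8 (2.00) and S100b (0.617). The ranges over libraries of S100a16, S100a10 and S100a14 overlapped between neighbours, and other neighbours from S100a6 to S100b were apart. In Yap-activated tissue the order was S100a6 (2109), S100a11 (581), S100a10 (508), S100a9 (232), S100a14 (182), S100a16 (156), S100a1 (152), S100a8 (134) and S100b (3.65). There S100a6 was above the rest, S100b was below, and each gene from S100a11 to S100a8 overlapped its neighbour. With the length of the first listed transcript of each gene, S100a10 (898) stood above S100a11 (581) in Yap-activated tissue. S100a14 (343) then stood above S100a9 (236), and S100a8 (191) above S100a1 (155). In Normal tissue S100a11 then overlapped S100a1, and S100a9 overlapped S100a8. S100a1 went from the third place to the seventh on the first of these scales.

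Within the summed level the mix shifted. S100a10 made up 3.50 ± 0.900% of the members' CPM in Normal and 12.5 ± 3.64% in Yap-activated libraries, and S100a1 8.28 ± 1.19% and 2.37 ± 0.672% (SD, n = 3). S100a6 made up 69.1 ± 1.99% and 62.4 ± 5.95%. The shares of S100a10 and S100a1 did not overlap between the groups, and those of S100a6 did.

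**Figure D3:**
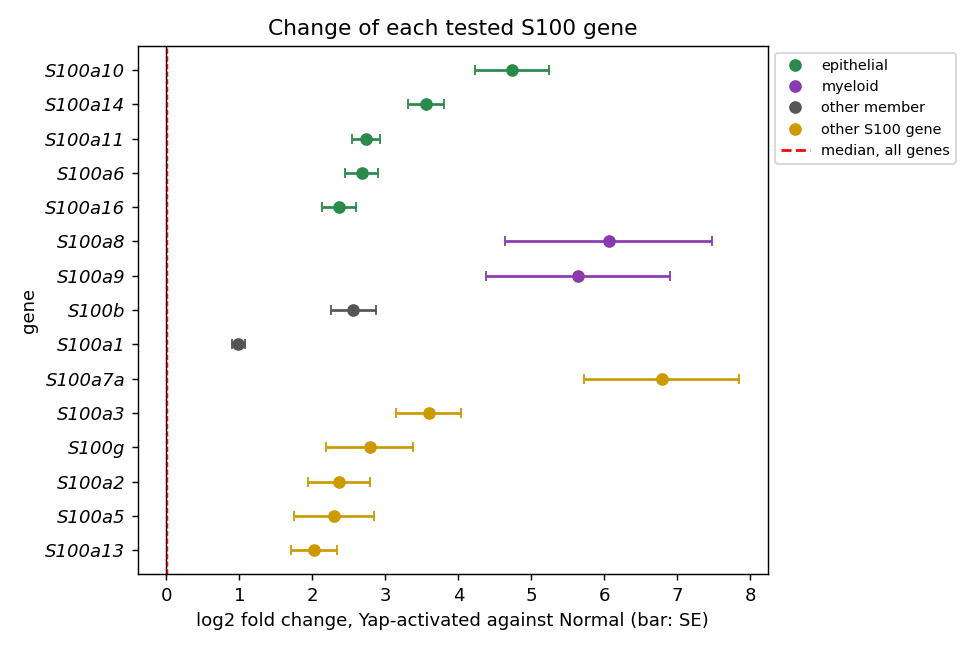
Log2 fold change of Yap-activated against Normal with its SE for the 9 tested members and the 6 other S100 genes tested, coloured by group. All 15 values lie to the right of the median of all genes (0.0114), from 0.99 for S100a1 to 6.79 for S100a7a.

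Beyond the 10, 7 S100 genes were counted, and the 6 that could be tested were all called higher (29.8% of all genes were), with a median log2 fold change of 2.57. Of the 6, S100a2, S100a3 and S100a5 had means of 0.207, 0.0819 and 0.114 CPM in Normal. These genes passed the filter on counts only through their Yap-activated libraries, so a fall could hardly have been called. The 6 are therefore not an even match for the share of all genes. S100a7a, the mouse relative of the human psoriasin genes, had 0.466, 0.285 and 0.506 CPM in Normal and 106, 14.0 and 17.7 CPM in Yap-activated libraries. This was a log2 fold change of 6.79 (SE 1.06, adjusted p = 0.00164, edgeR), or 5.26 without Yap-activated replicate 1, which was again far above the others. S100g, which encodes the calcium buffer calbindin-D9k of calcium-absorbing epithelium, had 1.11, 3.30 and 1.01 CPM in Normal and 13.4, 18.5 and 6.01 CPM in Yap-activated libraries. This was a log2 fold change of 2.79 (SE 0.60, adjusted p = 0.00600, edgeR) and 3.57 without Normal replicate 2. S100a2, S100a3 and S100a5 stayed at 0.580 to 1.10 CPM on average in Yap-activated tissue, with log2 fold changes of 2.36, 3.59 and 2.30, and S100a5 was at 2.90 without Normal replicate 2. S100a3 shares 144 exonic bases with Gm42674. S100z was too low to test.

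Along chromosome 3 all 13 S100 genes tested were called higher, against 29.8% of all genes, 11 of them in the block from S100a1 to S100a9. Among the 13, S100a2, S100a3 and S100a5 passed the filter only through their Yap-activated libraries, so their direction was nearly fixed beforehand. The 13 are therefore not an even match for the share of all genes. The 3 largest changes, of S100a7a, S100a8 and S100a9, belong to adjacent S100 genes at one end of that block. Between S100a9 and S100a11 the table held 58 other genes, among them genes of the cornified envelope of skin, and 30 of these had under 10 reads in all libraries together. Of the 11 tested there, 5 were called higher and 6 did not pass, against 29.8% of all genes called higher. Those 5 were Sprr2a3, Sprr2f, Sprr1a, Ivl and Tchh. Ivl, at a mean of 0.0670 CPM in Normal, also passed the filter only through its Yap-activated libraries. Adjacent genes share their region, so they are not independent observations.

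**Figure D4:**
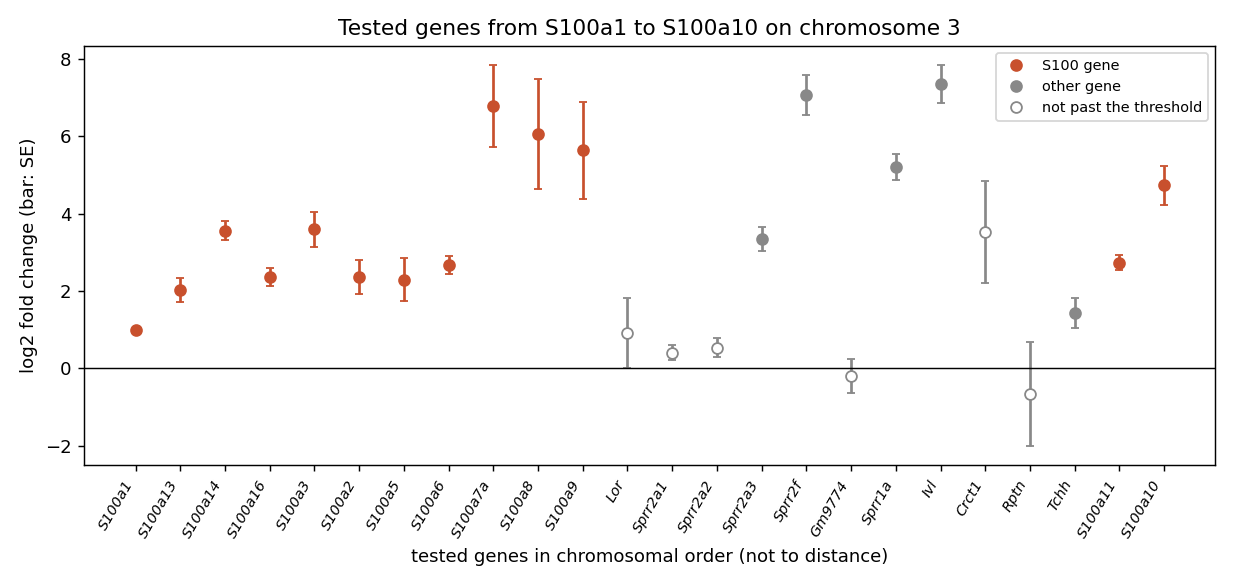
Log2 fold change with its SE for every tested gene from S100a1 to S100a10 in chromosomal order, not to distance, with S100 genes in red and other genes in grey, and open points for genes not past the threshold. The 13 S100 genes are all above 0, and the 11 other genes run from -0.67 for Rptn to 7.35 for Ivl.

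Of 12 binding partners of S100 proteins 11 were tested: 5 were higher, 2 lower and 4 did not pass. With 59.5% of all genes called, 7 of 11 is near the background and is no result about the partners as a set. Anxa2, which forms a tetramer with S100A10, had 120, 142 and 108 CPM in Normal and 2540, 2264 and 1683 CPM in Yap-activated libraries, a log2 fold change of 4.13 (SE 0.22, adjusted p = 5.03e-06, edgeR). Anxa1, the partner of S100A11, had 63.2, 66.5 and 41.3 CPM and then 1389, 939 and 777 CPM, a log2 fold change of 4.18 (SE 0.30). Both annexins were highest in Yap-activated replicate 1 and lowest in replicate 3, the order of the epithelial members. Ahnak, a scaffold that binds the S100A10 and annexin A2 complex, had a log2 fold change of 1.59, and Anxa11 and Myh9 had 1.14 and 0.54. None of them followed that order: Ahnak was lowest in Yap-activated replicate 2, and Anxa11 and Myh9 in replicate 1. The genes of calcyclin-binding protein, Cacybp, and of another S100A6 partner, Sugt1, were at 0.07 and 0.06 and did not pass (adjusted p = 0.805 and 0.621, edgeR). The 2 that fell encode channels, Kcnk3 at -1.21 and Trpv6 at -2.65.

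Among 4 receptor genes, 1 rose, 1 fell and 2 did not pass, against 59.5% of all genes called. Ager, which encodes RAGE, had 1.90 to 2.53 CPM in Normal and 5.51 to 8.98 CPM in Yap-activated libraries, a log2 fold change of 1.76 (SE 0.26, adjusted p = 7.12e-04, edgeR). Cd36, a fatty acid transporter and scavenger receptor that binds S100A8 and S100A9 in complex with arachidonic acid, had 84.9 to 137 CPM in Normal and 1.79 to 6.88 CPM in Yap-activated libraries, a log2 fold change of -4.60 (SE 0.48, adjusted p = 2.33e-04, edgeR). Tlr4 was at 0.15 (adjusted p = 0.509). Bsg, which encodes basigin, was at 0.64 (adjusted p = 0.0940, edgeR) and passed in 3 of 14 alternatives, with adjusted p from 0.00124 to 0.263. Endothelial cells and fat-storing cells also express Cd36, and 5 endothelial markers summed to 156 to 170 CPM in Normal and 29.4 to 52.6 CPM in Yap-activated libraries. All 5 were called lower, against 29.7% of all genes, among them Kdr at -2.45 and Plvap at -2.37 on the log2 scale. The part of this shift in the fall of Cd36 was not tested.

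In genes of the fused type an S100 domain is joined to a long repeat of skin barrier proteins. Of 7 such genes 2 could be tested and 1 was called. With 59.5% of all genes called, this is no result about these genes as a set. Tchh was at 1.43 (adjusted p = 0.0151, edgeR), a call that ended when Normal replicate 2 was left out (adjusted p = 0.0511) and when Normal replicate 3 was (adjusted p = 0.0609), with adjusted p from 0.00139 to 0.0609 over its 14 alternatives. Rptn was at -0.67 and did not pass (adjusted p = 0.692, edgeR), and its sign turned with the setting. Flg2, a relative of filaggrin, had 0 reads in all 6 libraries.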

How the data were processed

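The authors deposited raw counts, in whole numbers, in 1 table with a row per gene symbol and a column per library. Per the labels' protocols the libraries were made with a stranded mRNA kit (TruSeq) and sequenced as paired 50 bp reads. Builds GRCm38 and mm10 and the tools DESeq2 and STAR 2.4.2a are listed, with no roles, in the submitters' processing notes. The sources used here give no counting program, strand setting or annotation. The analysis used edgeR 4.0.16 (R 4.3.3) on these counts: filterByExpr (minimum count 10), TMM scaling, a robust quasi-likelihood test between the groups with all 6 libraries in the fit, and Benjamini-Hochberg adjustment over the 14600 genes tested, with a threshold of 0.05. Each SE was taken as the size of the log2 fold change over the root of its F statistic. The test was also run on simulated data in which far fewer genes changed than were called here. That run therefore does not show how the test does on these data. Positions and exon lengths come from GENCODE mouse release 21 on GRCm38, which held 21523 of the 21526 symbols. Nothing in the labels ties each library to a mouse of its own, so a p-value reflects spread between libraries that may be technical. Replicates were compared by chi-square of their counts. The members and gene lists were chosen with earlier results of these data known. Named are all members, other S100 genes, the 2 members of each list with the smallest p and the one with the highest mean CPM, and the 5 non-member genes most like S100a9 and S100a6. Other genes named were chosen after their values were seen. For likeness, log2 CPM had a prior count of 2. Alternatives were other scalings, filters of none or 1 CPM in 3 libraries, DESeq2 1.42.0, limma 3.58.1 (voom), a replicate block and leaving out each library. Of the glial list 2 genes are not reported here, whatever the rule.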

Additional observations from a re-analysis of the deposited data

How the results depend on the processing

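Of 126 comparisons of a member's log2 fold change with an alternative, 124 kept their direction and their side of the threshold. The exceptions were S100a8 (4.66) and S100a9 (4.46) with limma voom, which kept their direction but did not pass, for reasons that were not tested. The number of members called was 9 in the other 13 alternatives and 7 with voom. Leaving out 1 library gave log2 fold changes of 4.43 to 6.62 for S100a8, 4.20 to 6.19 for S100a9 and 4.15 to 4.98 for S100a10. The summed level of the members rose by 2.85 on the log2 scale, by 3.33 with library totals alone and by 3.79 per length (TPM-like, which uses no TMM). With library totals alone 7522 genes were called higher and 2299 lower, against 4345 and 4337. The replicate block called 8561 genes against 8682, gave 5.09 for S100a8 and 4.67 for S100a9, and changed no member's call. Same-numbered libraries correlated at 0.0400, 0.00270 and 0.0690 after group means were removed, and not every library correlated best with its own number, so the labels' numbers were not treated as pairs. Rptn turned from -0.67 to 1.36 with voom, 1.04 with the replicate block and 3.67 without Normal replicate 2, and leaving out 1 library gave -1.23 to 3.67. S100a4 stayed too low to interpret at this depth.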
